A study of Mus musculus with 10 samples.

Results

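The genes described here are Myc and 38 genes whose products build ribosomes, 39 in all of the 57825 genes in the deposited expression table. They were chosen by name: each gene symbol on the list was looked up in the table, and all 39 were found and passed the filter on low values. The samples were CD8+ T cells from the spleens of female Balb/c mice, purified with a magnetic isolation kit, activated on anti-CD3 plates with IL-2 and anti-CD28 for 12 h and co-cultured for 48 h with 4T1 cells, a mouse mammary carcinoma line. In 5 samples the cells received no acetate (CD8+4T1), and in the other 5 they were kept with 5 mM sodium acetate for 24 h before the co-culture (CD8+4T1+NaAc). The sample titles describe this co-culture as with acetate, but do not say outright whether acetate stayed in the medium. All were collected at Day 3. Activation, IL-2, anti-CD28 and the tumour cells were common to both groups, and neither T cells alone nor 4T1 cells alone were among the samples analysed here. Nothing says that the 5 samples of a group came from separate animals or cultures, so the p-values measure the spread between these samples. The comparison addresses how acetate affects CD8+ T cells in the presence of tumour cells.

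MYC is a transcription factor that is induced when T cells are activated and that drives growth, and genes of ribosome production are among its best known targets. Ribosomes are assembled in the nucleolus, where RNA polymerase I copies the rDNA into a long precursor. Small nucleolar ribonucleoproteins (snoRNPs) then modify that precursor, box C/D particles by methylating riboses and box H/ACA particles by converting uridines to pseudouridines, while assembly factors cut it and fold it into the small (40S) and large (60S) subunits.

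Levels are in FPKM, which divides the fragments of a gene by its length and by the depth of the sample, so levels of different genes can be compared per length. The FPKM of a sample refer to between 16306447 and 18853726 fragments. Listed genes held 95.5 to 97.9% of these fragments in the CD8+4T1 samples and 89.8 to 92.1% in the CD8+4T1+NaAc samples. The summed FPKM were also lower in the second group (282995 to 295928 against 310965 to 335151). FPKM rescaled to the same total in every sample are therefore given beside the main values where they change a call; this rescaling moved the median over all genes tested from -0.02 to 0.15 on the log2 scale. T cell markers were high in both groups, with Cd8a at 76.0 to 81.9 FPKM without acetate and 72.2 to 81.6 FPKM with it. The markers of epithelial and 4T1 cells summed to 40.6 to 53.6 FPKM without acetate and 127 to 290 FPKM with it, and of the 12 of these 20 markers that passed the filter 8 were called higher. Among them Krt8 stood at 1.77 to 5.66 FPKM without acetate and at 20.0 to 53.5 FPKM with it, whereas Krt5, Krt19 and Esrp1 were at or near 0 in both groups. The 15 T cell markers summed to 1450 to 1654 FPKM and 1133 to 1611 FPKM, and 6 of them were called lower and 1 higher, with a median log2 fold change of -0.15 (5 lower and 5 higher after rescaling). The CD4 markers summed to 0.47 to 1.08 FPKM without acetate and 1.47 to 2.01 FPKM with it, and Cd4 was called higher at 1.44. Of 2 myeloid markers tested Lyz2 was called higher at 0.96, while Cd68, at -0.17, was not called. The summed FPKM of the myeloid markers overlapped between the groups, with a lower mean with acetate. Of 2 B cell markers tested none was called. The part of RNA from tumour cells or from these other cells in the results below was not tested, and in such bulk RNA fewer cells of a type and less RNA per cell cannot be told apart.

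With acetate, 14 of the 39 genes were lower and none was higher in limma at a Benjamini-Hochberg adjusted p under 0.05 over all 15710 genes tested. In the same fit 19.0% of all genes tested were called lower and 17.6% higher. Most members are well expressed, from a mean of 3.56 FPKM for Wdr12 to that of Npm1, which exceeded 99.2% of the genes tested. Among the 9014 genes with a mean at least that of Wdr12, 28.3% were called lower and 16.2% higher, against 35.9% and 0% of the members. In 12 members every CD8+4T1+NaAc sample lay below every CD8+4T1 sample and in none the reverse held, against 13.3% of all genes with the samples separated downwards and 13.1% upwards. The median log2 fold change was -0.11 over the members and -0.02 over all genes. Before adjustment Noc2l alone was higher at a limma p under 0.05 (log2 fold change 0.10). Likewise 14 members were lower and 0 higher both by voom on the recovered fragments, which called 18.5% of all genes lower and 19.7% higher, and by limma after median-ratio scaling, which called 20.2% lower and 16.7% higher. Of the called members 4 (Fbl, Gar1, Nhp2 and Nop16) were lower by over 0.5 on the log2 scale, against 7.43% of all genes lower and 10.2% higher by this margin.

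The direction of the smaller changes depended on the scaling. After rescaling to the same total, 8 members were called higher and 6 lower (20.5% and 15.4%), against 31.2% and 8.83% of all genes. Of the calls among members 57.1% were then higher in place of 0%, and over all genes 77.9% in place of 48.1%. After scaling each sample to its T cell markers, 2 members were higher (Polr1b and Rrp1b) and 4 lower, against 24.1% and 7.70% of all genes, and this scaling put the median of all genes at 0.12. Fbl, Gar1, Nhp2 and Nop16 were called lower in each of the 23 settings tried, and Nop14 and Pes1 in 22 of 23. No member was called in both directions across the settings.

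**Figure D1:**
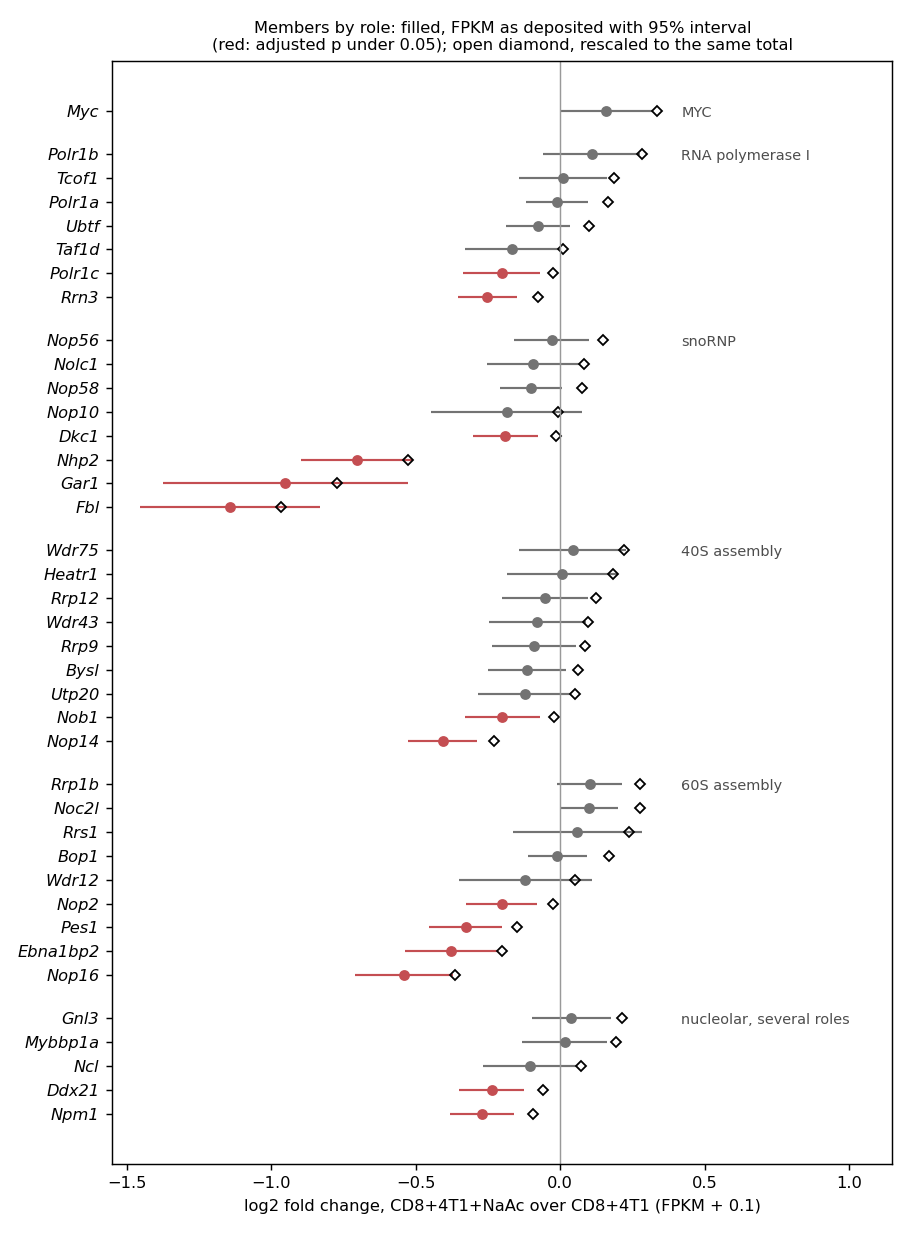
Log2 fold change of the 39 members (x axis, CD8+4T1+NaAc over CD8+4T1, n = 5 samples per group), grouped by role; filled circles with 95% intervals are the FPKM as deposited, red where the adjusted p was under 0.05, and open diamonds are the values after rescaling to the same total. Fbl, Gar1 and Nhp2 lie farthest to the left, from -1.14 to -0.70, and the diamonds sit to the right of the circles in every row.

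Myc itself was not called. Its level was 79.7, 67.9, 68.8, 78.8 and 67.0 FPKM in CD8+4T1 replicates 1 to 5 and 90.6, 73.9, 79.3, 82.9 and 77.4 FPKM in CD8+4T1+NaAc replicates 1 to 5. The groups overlapped, with the highest value in the first acetate sample. The log2 fold change was 0.16 (95% interval -0.0016 to 0.32, limma adjusted p = 0.112). After rescaling to the same total it was 0.34 and was called higher (limma adjusted p = 0.00848). A replicate block on the deposited FPKM also called Myc higher, although same-numbered samples deviated together at most weakly (correlations of -0.03 to 0.07).

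The RNA polymerase I group holds subunits of the enzyme and its initiation factors, and 2 of its 7 members were lower (28.6%). This is close to the 28.3% among genes with a mean at least that of Wdr12, where all genes tested had 19.0%. Rrn3, the factor that makes the polymerase competent to start, had 18.2, 18.9, 18.5, 17.2 and 18.2 FPKM without acetate and 14.4, 16.0, 15.8, 14.8 and 15.4 FPKM with it. The groups did not overlap, and the log2 fold change was -0.25 ± 0.05 (SE, limma adjusted p = 0.00172). Polr1c, a subunit shared with RNA polymerase III and the most abundant of the group, had 33.3, 29.8, 31.9, 37.2 and 31.2 FPKM against 28.5, 27.6, 27.1, 29.9 and 28.6 FPKM. Only the highest acetate sample reached the lowest sample of the other group, and the log2 fold change was -0.20 ± 0.06 (limma adjusted p = 0.0234). This call was lost without CD8+4T1+NaAc replicate 2 or 3, with log2 fold changes of -0.23 to -0.15 on leaving out a sample. Neither Rrn3 nor Polr1c was called after rescaling (-0.08 and -0.02).

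Polr1b, the second largest subunit, showed the largest rise of the group. It had 8.45, 8.18, 8.42, 8.41 and 9.01 FPKM without acetate and 7.66, 10.5, 9.52, 9.31 and 9.06 FPKM with it, so that the first acetate sample was the lowest of all 10 and the other 4 were above every sample of the first group. The log2 fold change of 0.11 ± 0.08 was not called (limma adjusted p = 0.298), but it was called higher at 0.17 without CD8+4T1+NaAc replicate 1 and at 0.28 after rescaling (limma adjusted p = 0.0102). The catalytic subunit Polr1a had a log2 fold change of -0.01, the upstream binding factor Ubtf of -0.08, Taf1d, a part of the promoter selectivity complex, of -0.17, and Tcof1, the treacle protein that holds rDNA transcription and early processing together, of 0.01. None of these 4 was called as deposited. Polr1a was called higher after rescaling (0.16, limma adjusted p = 0.0454), so that the group then had 2 members higher and 0 lower. Taf1d was called lower without CD8+4T1+NaAc replicate 1 (-0.24) and was at 0.01 after rescaling.

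The largest changes were found among the snoRNP proteins, where 4 of 8 members were lower (50%, against 19.0% of all genes tested). Fbl encodes fibrillarin, the methyltransferase of box C/D particles, and stood at 67.3, 79.6, 75.7, 78.2 and 82.4 FPKM without acetate. With acetate it stood at 51.0, 33.9, 32.6, 27.1 and 32.3 FPKM. All 5 acetate samples were below all 5 others, the first acetate sample being the nearest to them, and the mean fell to 46.2% of that without acetate. The log2 fold change was -1.14 ± 0.14 (limma adjusted p = 0.000166), and -0.96 after rescaling. Its partners in the particle, the scaffold proteins Nop56 and Nop58, were not called. Nop56 had 59.5, 58.8, 59.2, 60.6 and 60.2 FPKM against 55.2, 66.9, 58.2, 59.5 and 53.4 FPKM, with a log2 fold change of -0.03 (95% interval -0.16 to 0.10), and Nop58 had one of -0.10 (95% interval -0.21 to 0.01).

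In the box H/ACA particle, Gar1 and Nhp2 fell most. Gar1 had 76.6, 68.4, 71.2, 79.1 and 76.8 FPKM without acetate and 66.0, 37.9, 38.0, 28.1 and 31.3 FPKM with it. The first acetate sample was just below the lowest sample of the other group and far above the remaining 4, and the log2 fold change of -0.95 ± 0.19 (limma adjusted p = 0.00301) became -1.14 without it. Nhp2, the most abundant member of the snoRNP group, had 131, 146, 156, 162 and 148 FPKM against 107, 97.5, 89.9, 80.5 and 82.4 FPKM. Here too the groups did not overlap, and the log2 fold change was -0.70 ± 0.09 (limma adjusted p = 0.000164). Dkc1, the pseudouridine synthase itself, was lower by much less, from 21.5 to 24.01 FPKM without acetate and from 18.4 to 21.3 FPKM with it (log2 fold change -0.19 ± 0.05, limma adjusted p = 0.0141), and it was at -0.01 after rescaling. Nop10, the fourth protein of the core, ranged from 42.3 to 64.8 FPKM and from 37.9 to 53.9 FPKM, and its log2 fold change of -0.18 was not called (95% interval -0.45 to 0.08). Nolc1, a chaperone that shuttles snoRNPs to the nucleolus, was at -0.10 and not called.

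**Figure D2:**
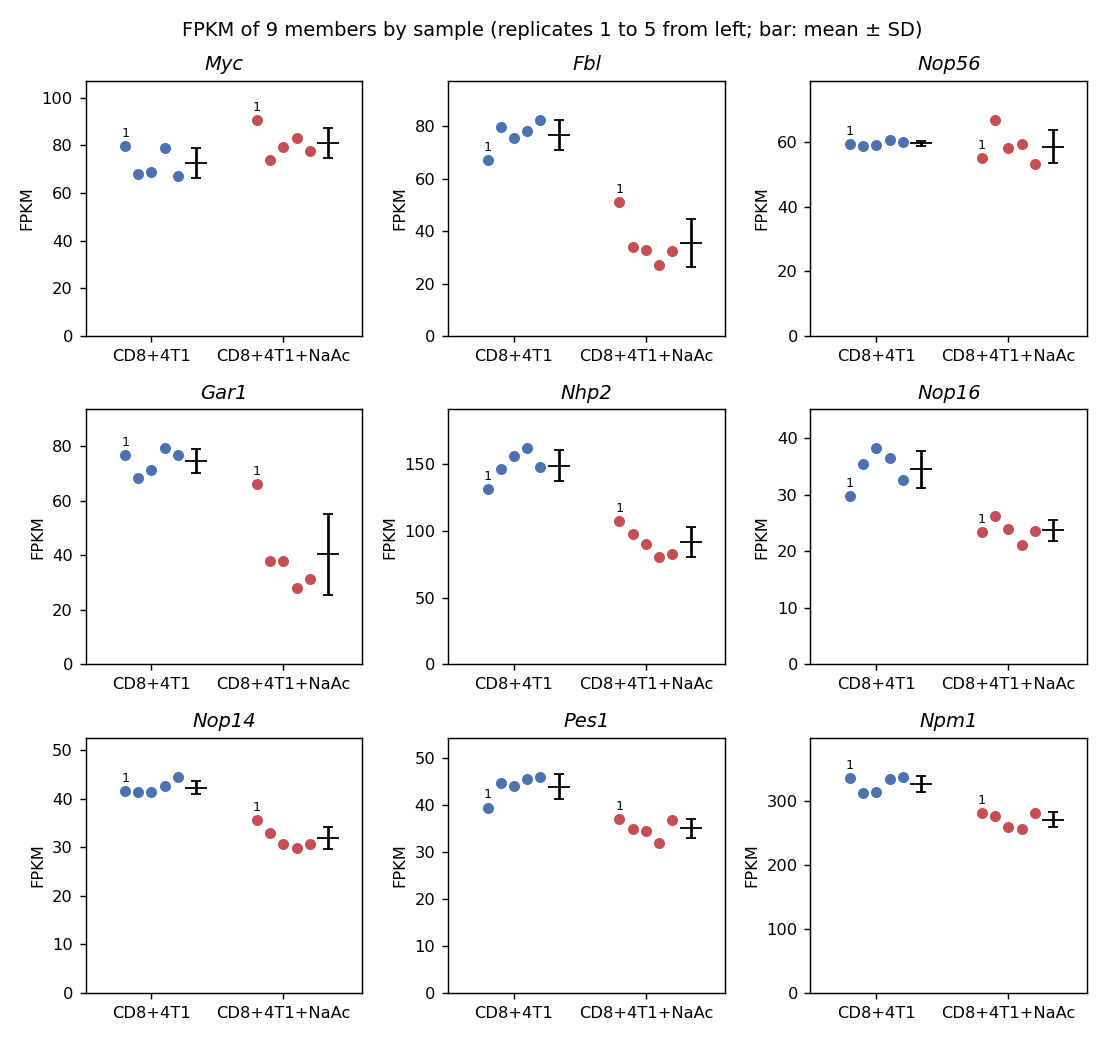
FPKM (y axis, from 0) of 9 members in each of the 5 CD8+4T1 samples (blue) and 5 CD8+4T1+NaAc samples (red), replicates 1 to 5 from left to right with replicate 1 marked; bars are the mean ± SD. Fbl, Gar1, Nhp2, Nop16, Nop14, Pes1 and Npm1 do not overlap between groups, Myc and Nop56 do, and the first acetate sample of Fbl (51.0 FPKM) and of Gar1 (66.0 FPKM) lies apart from the other 4.

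Unequal changes within a particle were compared as ratios of FPKM within each sample, in which any scaling of the sample cancels. All 15 pairs within the box C/D, box H/ACA, PeBoW and RNA polymerase I complexes were taken, a choice made after the fold changes had been seen, and each was tested with an exact two-sided permutation test whose smallest possible p is 0.00794. The ratio of Fbl to Nop56 was 1.13, 1.35, 1.28, 1.29 and 1.37 without acetate and 0.925, 0.508, 0.561, 0.455 and 0.605 with it. Without acetate Fbl was thus above Nop56 in every sample and with acetate below it in every sample. The mean log2 ratio differed by -1.11 (exact permutation p = 0.00794, adjusted over the 15 pairs 0.0238), and that of Fbl to Nop58 by -1.04 (exact permutation, adjusted p = 0.0238), while that of Nop56 to Nop58 differed by 0.07 (exact permutation, adjusted p = 0.408). The log2 ratio of Dkc1 to Nhp2 was higher by 0.51 with no overlap of the groups (exact permutation, adjusted p = 0.0238), and that of Dkc1 to Nop10 differed by -0.0047 (exact permutation, adjusted p = 0.960).

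In all, 8 of the 15 pairs had an adjusted p under 0.05 and 5 of them did not overlap. The other 2 of these 5 were the ratio of Pes1 to Bop1, lower by -0.32, and that of Polr1a to Polr1c, higher by 0.19 (both exact permutation, adjusted p = 0.0238). The ratio of Dkc1 to Gar1 was higher by 0.76 and that of Gar1 to Nop10 lower by -0.77 (both exact permutation, adjusted p = 0.0340), and in each 1 acetate sample, replicate 1, lay within the range of the other group. The ratio of Polr1b to Polr1c was higher by 0.31 (exact permutation, adjusted p = 0.0446), and that of Gar1 to Nhp2 differed by -0.25 (exact permutation, adjusted p = 0.216). With a sample left out the smallest possible p is 0.0159. The 5 pairs without overlap kept an adjusted p under 0.05 in each of the 10 tests without a sample (exact permutation, adjusted p = 0.0265 to 0.0476). This was fixed beforehand and shows no stability, since leaving out a sample cannot make separated groups overlap. Their differences were -1.28 to -1.02 (Fbl to Nop56), -1.19 to -0.98 (Fbl to Nop58), 0.46 to 0.56 (Dkc1 to Nhp2), -0.35 to -0.29 (Pes1 to Bop1) and 0.13 to 0.21 (Polr1a to Polr1c). The other 3 pairs kept an adjusted p under 0.05 in few of these 10: Dkc1 to Gar1 and Gar1 to Nop10 in 2 each (exact permutation, adjusted p = 0.0265 to 0.0680) and Polr1b to Polr1c in 1 (exact permutation, adjusted p = 0.0265 to 0.0893). Their differences kept their direction in these tests, at 0.68 to 0.93, -0.90 to -0.69 and 0.25 to 0.38. The count of pairs was thus 5 without CD8+4T1 replicate 3, 4 or 5 or CD8+4T1+NaAc replicate 2, 3, 4 or 5, while it was 6 without CD8+4T1 replicate 2, 7 without CD8+4T1 replicate 1 and 11 without CD8+4T1+NaAc replicate 1.

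**Figure D3:**
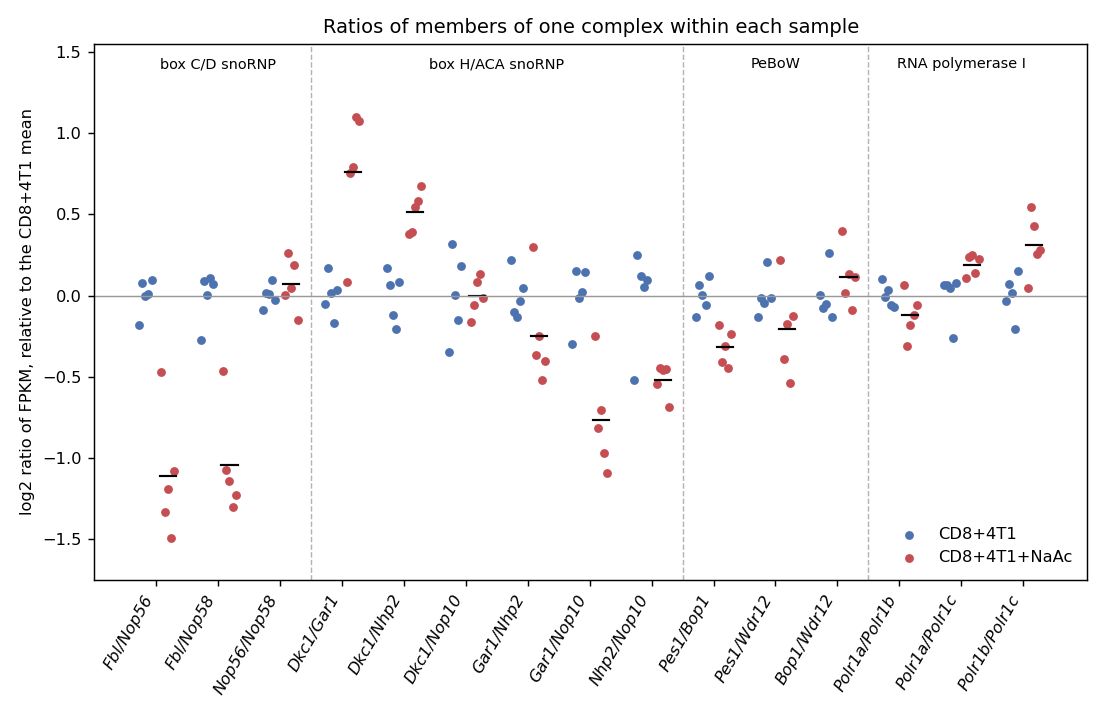
Log2 ratio of the FPKM of 2 members of a complex in each sample, relative to the mean of the CD8+4T1 samples (y axis), for 15 pairs (x axis); blue, CD8+4T1, red, CD8+4T1+NaAc, 5 samples each, black line, mean with acetate. The ratios of Fbl to Nop56 and to Nop58 lie below 0 in every acetate sample with means of -1.11 and -1.04, while Nop56 to Nop58 and Dkc1 to Nop10 scatter around 0.

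Among the 9 factors of small subunit assembly, 2 were lower (22.2%). This is close to the 19.0% of all genes tested and below the 28.3% of genes with a mean at least that of Wdr12. Nop14, a part of the early processome and the most abundant of this group, had 41.5, 41.3, 41.4, 42.7 and 44.5 FPKM without acetate and 35.5, 32.9, 30.6, 29.9 and 30.8 FPKM with it. The groups did not overlap, and the log2 fold change was -0.41 ± 0.05 (limma adjusted p = 0.000245), or -0.23 and still called after rescaling. Nob1, the nuclease that makes the final cut of 18S rRNA, was at -0.20 ± 0.06 (limma adjusted p = 0.0217), and after rescaling it was at -0.02 and not called. Its call was also lost after scaling to the T cell markers, without CD8+4T1 replicate 4 and without CD8+4T1+NaAc replicate 3, 4 or 5, with log2 fold changes of -0.24 to -0.17 on leaving out a sample. Wdr75, a subunit of the processome that binds the start of the precursor, showed the largest rise of the group, with 13.4, 11.6, 12.1, 11.1 and 10.9 FPKM against 10.5, 13.2, 12.8, 11.2 and 13.5 FPKM. Its groups overlapped over most of their range, and the log2 fold change of 0.04 was not called (95% interval -0.14 to 0.23). Its partners Wdr43 and Heatr1 were at -0.08 and 0.01, the processome proteins Utp20 and Rrp9 at -0.12 and -0.09, and the later factors Bysl and Rrp12 at -0.12 and -0.05, none of them called.

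Of the 9 factors of large subunit assembly, 4 were lower (44.4%, against 19.0% of all genes tested). Nop16 had the largest fall, from 29.8, 35.5, 38.2, 36.4 and 32.6 FPKM to 23.4, 26.2, 23.9, 21.1 and 23.7 FPKM. No acetate sample reached the other group, and the log2 fold change was -0.54 ± 0.08 (limma adjusted p = 0.000359), and -0.36 after rescaling, still called. Nop2, a methyltransferase of the large subunit rRNA and the most abundant of these factors, had 50.2, 48.4, 47.4, 51.4 and 50.3 FPKM against 41.8, 47.1, 42.3, 45.5 and 39.1 FPKM. The groups were adjacent but separate, with a log2 fold change of -0.20 ± 0.06 (limma adjusted p = 0.0152) that was at -0.02 after rescaling.

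Ebna1bp2, an early large subunit factor, lay between 28.7 and 31.4 FPKM without acetate and between 20.8 and 28.0 FPKM with it (log2 fold change -0.38 ± 0.07, limma adjusted p = 0.00226), and at -0.20 it was not called after rescaling. Pes1, which with Bop1 and Wdr12 forms the PeBoW complex needed for 28S rRNA maturation, went from between 39.5 and 46.0 FPKM to between 31.9 and 37.0 FPKM (-0.33 ± 0.06, limma adjusted p = 0.00133). Bop1 was at -0.01 (95% interval -0.11 to 0.09) and Wdr12 at -0.12 (95% interval -0.35 to 0.11), so that of the 3 proteins of this complex Pes1 alone was called as deposited. The log2 ratio of Pes1 to Wdr12 itself differed by -0.20 with overlapping groups (exact permutation, adjusted p = 0.238). After rescaling Pes1 was lower at -0.15 (limma adjusted p = 0.0433) and Bop1 higher at 0.17 (limma adjusted p = 0.0101). The largest rise was that of Rrp1b, a nucleolar protein of large subunit processing, with 9.51, 8.46, 9.33, 8.63 and 8.97 FPKM against 9.44, 10.2, 9.46, 9.75 and 9.33 FPKM. Its log2 fold change of 0.10 was not called as deposited (limma adjusted p = 0.142) and was called at 0.28 after rescaling, as was that of Noc2l, a protein of pre-60S transport (0.10 and 0.28). Rrs1, which helps to place the 5S particle, was at 0.06 and was called in neither.

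The last 5 members are nucleolar proteins with several roles. Npm1, nucleophosmin, the chaperone of the outer nucleolus and the most abundant member, had 335, 312, 313, 335 and 337 FPKM without acetate and 281, 276, 260, 256 and 281 FPKM with it. The groups did not overlap, with a log2 fold change of -0.27 ± 0.05 (limma adjusted p = 0.00185), or -0.09 and not called after rescaling. Ddx21, an RNA helicase that links RNA polymerase I to processing, was at -0.24 ± 0.05 (limma adjusted p = 0.00442) and likewise not called after rescaling (-0.06). Gnl3, nucleostemin, showed the largest rise, from 18.3, 18.8, 18.6, 18.7 and 18.9 FPKM to 16.6, 21.4, 19.0, 20.0 and 19.3 FPKM. Of the acetate samples 1 lay below and 4 above all of the others, and the log2 fold change was 0.04 (limma adjusted p = 0.662), or 0.22 and called higher after rescaling (limma adjusted p = 0.0133). Nucleolin, Ncl, was at -0.11 and not called, but its first acetate sample was the highest of all 10 at 103 FPKM, the other 4 lay between 80.6 and 85.7 FPKM, and without it Ncl was called lower at -0.17. Mybbp1a, a nucleolar repressor that binds MYB, was at 0.02 and not called, and at 0.19 and called higher after rescaling (limma adjusted p = 0.0274).

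Summed over the 38 genes other than Myc, the level was 1609 to 1709 FPKM without acetate and 1308 to 1462 FPKM with it. As a share of all FPKM of the sample it was 0.490 to 0.531% and 0.457 to 0.517%, and by this measure the groups overlapped. The overlap came from CD8+4T1+NaAc replicate 1 alone (0.517%), the other 4 lying at 0.457 to 0.483%. CD8+4T1+NaAc replicate 1 departed from the rest of its group in both directions, being the highest of the 5 for 17 members and the lowest for 14, and its T cell markers summed to 1133 FPKM against 1440 to 1611 FPKM in the other 4. Fewer genes were above 0 in it (20233, against 24681 to 25088 in the rest of its group). The same held for CD8+4T1 replicate 1 (22291, against 23786 to 24054). Without CD8+4T1+NaAc replicate 1, 1 member was called higher and 16 lower, where 21.7% of all genes were called higher and 22.6% lower.

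**Figure D4:**
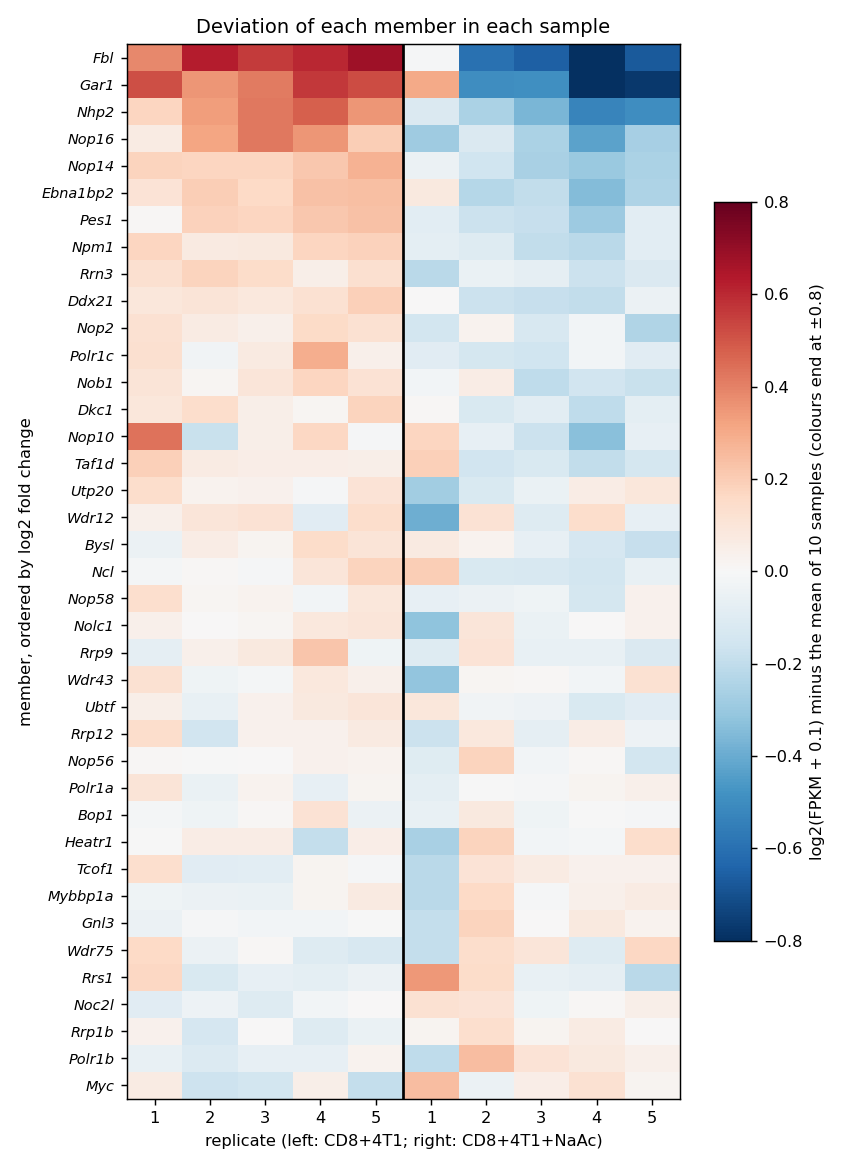
Deviation of each member (rows, from the largest fall at the top to the largest rise at the bottom) from its mean over the 10 samples on the log2(FPKM + 0.1) scale, for CD8+4T1 replicates 1 to 5 (left) and CD8+4T1+NaAc replicates 1 to 5 (right); red is above and blue below the mean. The upper rows, led by Fbl, Gar1 and Nhp2, change colour at the line between the groups, and the column of CD8+4T1+NaAc replicate 1 differs from its neighbours both in these rows and lower down.

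The rest of the pathway was described by lists of other genes. Of 126 further ribosome biogenesis genes 125 were tested, and 65 (52.0%) were called lower and 4 higher, with a median log2 fold change of -0.23. After rescaling to the same total these counts were 33 and 21. The share of calls that were higher thus went from 5.80% to 38.9%, while over all genes tested it went from 48.1% to 77.9%. For this list and those below, 19.0% of all genes tested were lower and 17.6% higher as deposited, and 8.83% and 31.2% after rescaling. The RNA exosome, which trims the 3′ ends of rRNA precursors, had 9 of 13 tested genes lower and 0 higher (4 and 3 after rescaling), led by its cap subunit Exosc3, which went from between 63.8 and 70.8 FPKM to between 25.2 and 35.8 FPKM, a log2 fold change of -1.17 ± 0.08 (limma adjusted p = 1.2e-05). Mphosph6, an exosome cofactor, was at -0.55.

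In the small subunit list 29 of 49 genes were lower and 2 higher (17 and 9 after rescaling), the falls led by Fcf1 (-0.73) and Emg1 (-0.64) and the rises being those of Tbl3 (0.33) and Imp3 (0.22). In the large subunit list 20 of 44 were lower and 2 higher (8 and 8 after rescaling), with Rpf2 at -0.60, Nsa2 at -0.53, Rbm28 at 0.31 and Ddx54 at 0.18. The factors that assemble snoRNPs had 4 of 10 lower (1 after rescaling), among them Ruvbl1 (-0.78), an ATPase of the R2TP complex that loads snoRNP proteins, and Nufip1 (-0.34), the adaptor of the same pathway. Further RNA polymerase I genes had 3 of 9 lower and 0 higher (3 and 1 after rescaling), with the subunit Polr1h at -0.56 and the termination factor Ttf1 at -0.49.

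Among 10 tested genes of the MYC network, 5 were lower and 3 higher as deposited, and 2 were lower and 5 higher after rescaling. Mycl, a paralogue of Myc, was at 0.28 to 0.46 FPKM without acetate and 0.43 to 1.65 FPKM with it. It passed the filter of 0.5 FPKM only through its acetate samples. Its higher call (log2 fold change 0.94 ± 0.31, limma adjusted p = 0.0380), counted among the 3, therefore carries no weight. Mlxip was at 0.66. The antagonists Mxd1 and Mxi1 were at -0.44 and -0.43. Max, the partner that MYC needs to bind DNA, was lower at -0.31 (limma adjusted p = 0.00124). It is outside the naming rule, was chosen after its value was seen, and was not called after rescaling (-0.13). Of 22 MYC targets outside the nucleolus 11 were lower and 2 higher as deposited (50% and 9.09%, against 19.0% and 17.6% of all genes tested). After rescaling 4 were lower and 3 higher (18.2% and 13.6%, against 8.83% and 31.2%). As deposited, Ldha, lactate dehydrogenase, was at -0.67 and Nme1 at -0.61. Odc1, the first enzyme of polyamine synthesis, was at 0.59 and Cad, of pyrimidine synthesis, at 0.13.

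Several members hold snoRNA genes between their start and end, by the positions in the deposited table. They are Ncl, Nop56, Nop58, Dkc1, Wdr43, Gnl3 and Taf1d, 7 of 39 members (17.9%) with 27 snoRNA genes on the same strand, against 193 of 11642 protein-coding genes tested (1.66%). Of these 7 hosts Dkc1 alone was lower as deposited, beside 19.0% of all genes tested. The log2 fold changes of the hosts ran from -0.19 to 0.04 with a median of -0.10. The other 32 members ran from -1.14 to 0.16 with a median of -0.12, and 13 were lower. Without CD8+4T1+NaAc replicate 1, Taf1d and Ncl were lower as well, which made 3 of the 7 hosts beside 13 of the 32 others. After rescaling no host was lower and Gnl3 was higher, against 6 lower and 7 higher of the others. Of 12 non-coding snoRNA host RNAs 11 were tested, and 6 were lower and 0 higher (4 and 1 after rescaling), with Snhg12 at -0.84 and Gas5 at -0.60.

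The promoters of the members were read from RefSeq (GRCm38.p6) as 250 bases before to 50 bases after each listed start, and 32 of 39 members had an entry. Those of Gar1 and Nhp2 are shown because these genes had the largest falls in the H/ACA particle, as the 250 bases before the start (5′ to 3′ on the strand of the gene), with CGGAAGT or its reverse complement ACTTCCG, the core bound by ETS factors, in capitals. Gar1 has a further ACTTCCG at position 1, just past the bases shown.
Gar1, chr3:129831397-129831646, minus strand: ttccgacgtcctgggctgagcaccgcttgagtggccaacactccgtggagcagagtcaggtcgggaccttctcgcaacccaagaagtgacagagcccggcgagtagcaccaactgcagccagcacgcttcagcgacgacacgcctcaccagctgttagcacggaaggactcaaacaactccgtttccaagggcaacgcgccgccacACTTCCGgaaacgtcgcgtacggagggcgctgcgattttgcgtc
Nhp2, chr11:51619523-51619772, plus strand: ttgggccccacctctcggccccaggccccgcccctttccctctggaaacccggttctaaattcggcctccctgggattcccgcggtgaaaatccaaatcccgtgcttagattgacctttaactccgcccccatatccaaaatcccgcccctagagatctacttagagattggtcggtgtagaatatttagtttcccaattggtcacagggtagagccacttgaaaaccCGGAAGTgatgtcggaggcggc
Dkc1 of the same particle, also lower as deposited, has an entry in which these letters were not found on either strand. Nop10, which was not called, holds the same letters across its start at position -6.
Nop10, chr2:112261909-112261938, plus strand: gccttggagagACTTCCGtccaatctggaa

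On either strand, CGGAAGT was found in 10 of the 32 members (31.2%), against 15.2% of the genes tested and 7.20% of all genes with an entry of the same length. The 10 were Gar1, Nhp2, Nop10, Ebna1bp2, Noc2l, Ddx21, Wdr75, Heatr1, Rrn3 and Polr1c, of which 6 were lower and 4 not called as deposited. After rescaling Gar1 and Nhp2 were lower, Noc2l was higher and the others were not called. CACGTG, the E-box that MYC and MAX bind, which is its own reverse complement, was found in 6 of 32 members (18.8%), against 11.7% of the genes tested and 8.09% of all. These letters cannot overlap with CGGAAGT on either strand. A match is a description of the letters and not a bound site. The 6 E-box members are Rrn3, with 2 matches, Nop2, Pes1, Utp20, Mybbp1a and Wdr43, and they are shown as windows of 30 bases because this is the element by which MYC is known to reach such genes.
Rrn3, chr16:13780472-13780501, plus strand: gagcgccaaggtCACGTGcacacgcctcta
Rrn3, chr16:13780639-13780668, plus strand: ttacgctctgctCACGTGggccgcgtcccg
Nop2, chr6:125131811-125131840, plus strand: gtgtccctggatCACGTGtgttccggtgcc
Pes1, chr11:3963965-3963994, plus strand: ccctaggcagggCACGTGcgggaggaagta
Utp20, chr10:88826765-88826794, minus strand: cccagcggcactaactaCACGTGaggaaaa
Mybbp1a, chr11:72441347-72441376, plus strand: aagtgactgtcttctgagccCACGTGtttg
Wdr43, chr17:71616220-71616249, plus strand: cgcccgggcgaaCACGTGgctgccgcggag
Rrn3, Nop2 and Pes1 were lower as deposited, and Utp20, Mybbp1a and Wdr43 were not called. After rescaling to the same total Pes1 was the only one lower and Mybbp1a the only one higher.

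Some counts may be shared with neighbouring or similar genes. By the deposited gene positions, 13 members overlap another tested gene. The most abundant overlapping genes are Idh3b beside Nop56 (38.6 FPKM) and Rmnd5b beside Nhp2 (25.0 FPKM), both on the opposite strand. The strand setting of the counting is not given in the sources used here. Pseudogenes named for a member held a part of the fragments of that member and its pseudogenes together. The median of this part was 5.69% for Npm1, 4.14% for Nop56 and 0.803% for Fbl. The deposited table places Fbl at chr7:27869135-27878694 (ENSMUSG00000046865), Gar1 at chr3:129618561-129625045 (ENSMUSG00000028010), Nhp2 at chr11:51510562-51514541 (ENSMUSG00000001056), Nop16 at chr13:54731998-54737903 (ENSMUSG00000025869) and Myc at chr15:61857240-61862223 (ENSMUSG00000022346). The build of these positions is not given in the sources used here, and none of the 39 members has the start and end of GRCm38 (GENCODE M21). Across the 39 genes, which are not independent replicates and share the same libraries, longer genes had the higher log2 fold changes (Spearman's rho 0.41, against 0.15 over all genes tested).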

How the data were processed

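The authors isolated RNA from the purified CD8+ T cells, prepared libraries with the NEBNext Ultra kit and sequenced them on an Illumina NovaSeq instrument. Per the submitters' processing notes and the methods, fastp, HISAT2 2.0.5, StringTie 1.3.3b and featureCounts 1.5.0-p3 were used, and the authors compared the groups with DESeq2 on counts. The deposited values are FPKM for each gene and sample, with the gene's position and length. The gene length, another deposited column in bases, is set by the authors' annotation, which with the genome build and strand setting is not given in the sources used here. Since FPKM are not counts, the main comparison used no count model; FPKM times length gave whole fragments in 100% of values (within 0.1), between 16306447 and 18853726 per sample as the scaling depth, so that the lowest member rested on at least 548 fragments.

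The 15710 genes whose mean over the samples reached 0.5 FPKM were compared on log2(FPKM + 0.1) with limma 3.58.1 in R 4.3.3, with a variance trend, robust moderation and Benjamini-Hochberg adjustment over all of them, and called at an adjusted p under 0.05. Fold changes are on this log2 scale, which understates the change of low genes. Groups and replicate numbers came from the sample titles. Values in every sample are given for Myc and, in each role, for the most abundant member and those with the largest rise and fall; in each other list the 2 largest rises and falls among the called genes are named. Further members were described where their values stood out. Ratios were tested by exact two-sided permutation with SciPy 1.17.1. The alternatives were other pseudocounts, filters and scalings, limma without trend and robust moderation, voom on the recovered fragments, a replicate block and leaving out samples. Members and lists were chosen with earlier results of these data known, and rescaling together with leaving out both replicates 1, and the ratios, were added after seeing the data.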

Additional observations from a re-analysis of the deposited data

Results flagged for a closer look

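In 8 of the 78 sets of 5 values (39 members in each group), the highest or lowest sample stood apart, its gap to the nearest sample exceeding 0.71 of the whole range; chance alone gives about 3.9. Taf1d was set apart in both groups by replicate 1, with a gap of 0.869 of the range in CD8+4T1 (22.7 FPKM, the others 20.6 to 20.8) and of 0.803 in CD8+4T1+NaAc (22.7 FPKM, the others 17.3 to 18.3). CD8+4T1+NaAc replicate 1 was also lowest for Tcof1 (gap 0.764, 23.7 FPKM, the others 28.1 to 29.7) and highest for Ncl (gap 0.745, 103 FPKM, the others 80.6 to 85.7). CD8+4T1 replicate 1 was lowest for Pes1 (gap 0.727, 39.5 FPKM, the others 44.1 to 46.0) and highest for Rrs1 (gap 0.736, 24.4 FPKM, the others 20.0 to 21.1). Heatr1 was lowest in CD8+4T1 replicate 4 (gap 0.758, 9.36 FPKM, the others 10.7 to 11.1), and Rrp9 highest in CD8+4T1+NaAc replicate 2 (gap 0.741, 21.7 FPKM, the others 18.5 to 19.3). Of the 8, 6 were samples with the number 1, 3 in each group.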

How the results depend on the processing

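The count of members lower with acetate was 14 with other pseudocounts, filters, median-ratio scaling, plain limma and voom. It was 6 after rescaling to the same total (8 higher), 4 after scaling to the T cell markers (2 higher), 7 after rescaling without both replicates 1 (16 higher, against 11.7% and 37.8% of all genes), and 4 with a log2 fold change beyond 0.5. Leaving out a sample gave 12 to 16 lower and 0 to 1 higher, and leaving out both replicates 1 gave 17 lower and 1 higher (22.6% and 21.8% of all genes). The gains without CD8+4T1+NaAc replicate 1 were Polr1b higher and Taf1d and Ncl lower. The cause was not tested.

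Of the 125 further ribosome biogenesis genes, 4 were higher and 65 lower. Higher calls were 2 with no filter or median-ratio scaling, 21 after rescaling, 14 by T cell markers, 9 without both replicates 1 and 28 with both changes, and 2 to 10 on leaving out a sample, the 10 without CD8+4T1+NaAc replicate 1. Lower calls were 33, 29 and 34 after rescaling, by T cell markers, and after rescaling without both replicates 1.

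Signs changed with a call after rescaling for Polr1a (0.16) and Bop1 (0.17). After rescaling without both replicates 1 they did so for Polr1a (0.22), Bop1 (0.19), Nop56 (0.18), Nolc1 (0.16), Wdr43 (0.20) and Rrp12 (0.20), and Nop2 lost its call at 0.0013. The replicate block gave 14 lower and 1 higher (18.1% and 16.2% of all genes), calling Myc higher and Taf1d lower and losing Nob1. Same-numbered samples deviated together at most weakly, with correlations of -0.03 to 0.07. Correlations this weak cannot decide whether the numbers pair the samples, since they do not exclude a shared source. Small fold changes are not resolved from the choice of scaling.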
